A study of Mus musculus with 18 samples.

Results

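The 10 genes described here encode subunits of the Polycomb repressive complexes: Ezh2, Ezh1, Eed, Suz12 and Jarid2 of Polycomb repressive complex 2 (PRC2), and Rnf2, Ring1, Bmi1, Pcgf1 and Bcor of Polycomb repressive complex 1 (PRC1). They were listed by symbol, and each matched a single gene of the 21938 protein-coding genes of GENCODE M21 on GRCm38. Splenic B cells of WT mice and of mice lacking Mir155 (KO) were studied with ChIP-seq for KDM2A and for dimethylated lysine 36 of histone H3 (H3K36me2), with 3 libraries per genotype and antibody. All cells of both genotypes had been cultured for 2 days at 1% O2 with anti-CD40, a fragment of anti-IgM and IL-4, so no normoxic or unstimulated group was present. In each group replicate 1 was male and replicates 2 and 3 were female; the age of the mice and whether the replicates came from separate animals were not in the labels, so every p-value measures the spread between these libraries. The deposited data were the lists of broad peaks, 12 in all, and the 6 input libraries were not analysed on their own.

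Polycomb proteins keep developmental genes silent through 2 kinds of histone modification. PRC2 methylates lysine 27 of histone H3 through EZH2 or EZH1, and PRC1 ubiquitinates histone H2A through RNF2 (RING1B) or RING1. In germinal centre B cells EZH2 is abundant and is known for holding back the plasma cell programme. KDM2A removes methyl groups from lysine 36 of histone H3 and is known to reach CpG islands through a zinc finger that binds unmethylated CpG dinucleotides. H3K36me2 is known to hinder methylation of lysine 27 by PRC2 on the same histone tail. The question put to these genes was therefore where KDM2A and H3K36me2 peaks lay over the genes that encode the Polycomb machinery itself, and whether they differed between WT and KO B cells.

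All 10 genes had at least 1 computed CpG island within 2 kb of a transcription start site (TSS), as had 12886 of the 21938 protein-coding genes. RefSeq promoter sequences on GRCm38.p6 were at hand for 9 of the 10 genes, all but Pcgf1. In the 250 bases before the start the number of CpG dinucleotides ranged from 12 in Eed to 37 in Suz12, against a median of 6 over 32851 promoters. The promoters of these 2 extremes are printed because CpG is the sequence that the zinc finger of KDM2A recognises, and those of Ezh1 and Bcor because these were the only members whose KDM2A peak was missing from a list. Each runs 5′ to 3′ on the strand of the gene, and the capitals mark CpG, which reads the same on both strands. The Suz12 promoter lay at chr11:79992856-79993105 on the plus strand, and 2.2% of all promoters held as many CpG. The Eed promoter with 12 CpG lay at chr7:89980977-89981226 on the minus strand, and 33.5% of promoters held as many. The Ezh1 promoter with 14 CpG lay at chr11:101226464-101226713 on the minus strand (29.4% of promoters), and the Bcor promoter with 17 CpG at chrX:12160347-12160596 on the minus strand (23.5% of promoters).
Suz12: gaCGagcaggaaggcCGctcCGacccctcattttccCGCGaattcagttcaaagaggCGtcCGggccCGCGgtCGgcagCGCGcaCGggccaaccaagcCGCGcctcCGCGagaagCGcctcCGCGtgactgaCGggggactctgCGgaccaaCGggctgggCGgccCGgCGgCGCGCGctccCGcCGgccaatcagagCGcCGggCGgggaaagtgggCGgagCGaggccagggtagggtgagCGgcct
Eed: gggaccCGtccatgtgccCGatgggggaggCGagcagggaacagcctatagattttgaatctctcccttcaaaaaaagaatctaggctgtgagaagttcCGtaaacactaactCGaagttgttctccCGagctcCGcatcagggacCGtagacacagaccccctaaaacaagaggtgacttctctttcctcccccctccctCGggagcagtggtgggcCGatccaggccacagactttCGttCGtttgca
Ezh1: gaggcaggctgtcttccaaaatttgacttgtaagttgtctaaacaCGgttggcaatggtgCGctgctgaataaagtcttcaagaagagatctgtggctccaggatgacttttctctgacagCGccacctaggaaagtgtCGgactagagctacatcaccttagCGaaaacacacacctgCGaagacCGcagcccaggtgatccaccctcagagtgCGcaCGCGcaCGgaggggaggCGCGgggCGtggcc
Bcor: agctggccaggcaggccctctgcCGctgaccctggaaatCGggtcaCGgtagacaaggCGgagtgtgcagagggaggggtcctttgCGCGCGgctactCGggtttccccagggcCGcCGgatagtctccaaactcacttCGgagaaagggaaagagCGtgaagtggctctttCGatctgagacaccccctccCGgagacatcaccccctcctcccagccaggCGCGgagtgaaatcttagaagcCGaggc

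These sequences differed in how they lay under KDM2A peaks. The 250 bases of Suz12 and of Eed were covered whole by a KDM2A peak in all 6 lists, although Eed had the fewest CpG of the 9 genes. The Ezh1 bases were touched by a peak in 5 lists, with between 4.00% and 40.8% of them covered in those lists. The Bcor bases were touched in 2 lists only, WT replicate 2 (28.8% covered) and KO replicate 3 (100% covered). An H3K36me2 peak touched 1 of the 4 printed promoters, that of Suz12, in WT replicate 1 (24.4% covered).

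The KDM2A lists held between 15387 and 29105 peaks over 0.433% to 1.11% of the genome, and the H3K36me2 lists between 37447 and 106720 peaks over 1.44% to 5.32%. The H3K36me2 peaks of the female KO libraries covered less of the genome (1.59% and 1.44%) than those of the male KO library (3.63%) and of the WT libraries (4.17% to 5.32%), so coverage over any gene has to be read beside these shares. The lists give neither reads nor depth, and no counting interval can be given. As a check of the labelled cell type, the B cell markers Cd79a, Cd79b and Pax5 had a KDM2A peak at a TSS in all 6 lists and Ms4a1 in 4 of them. None of the 4 T cell and 4 myeloid markers had one in all 6 lists, but the T cell marker Cd3d had one in 4 lists, as many as Ms4a1, so these peaks separate the cell types only in part and show occupancy, not expression. In mean WT coverage of the gene body by H3K36me2, Cd3d (62.8%), Itgam (52.0%), Csf1r (20.7%) and Lyz2 (18.6%) exceeded the B cell markers named (1.69% to 11.2%). The other T cell and myeloid markers, Cd3e, Cd3g, Cd8a and Cd14, did not. Mir155hg, the gene of the microRNA that the KO lacks, had a KDM2A peak at its TSS in all 6 lists, so the lists do not check the genotype.

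KDM2A occupied the starts of the Polycomb genes in nearly every library. A peak within 2 kb of a TSS was present in all 6 lists for 8 of the 10 genes. This was so for 26.4% of all protein-coding genes and for 42.4% of those with a CpG island in the same window. The WT lists held such a peak at 9, 10 and 10 of the genes and the KO lists at 10, 9 and 10 (difference 0, two-sided exact permutation test p = 1, n = 3 per genotype). The exceptions were Ezh1, without a peak in KO replicate 2, and Bcor, without a peak in WT replicate 1. Bcor is on the X chromosome, which held 0.131% to 0.295% of the peaks of the male lists and 0.434% to 0.991% of those of the female lists. The part of sex in the missing Bcor peak was not tested. Of the 84 KDM2A peaks in these windows 73 (86.9%) overlapped a CpG island. The 84 peaks pool the 6 lists, so a site could count in each list, and no share over all genes is given.

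The value compared at each gene was the highest fold of any KDM2A peak within 2 kb of a TSS, where fold is the ratio of signal over local background that the authors' peak caller gives. For Ezh2 (chromosome 6, 47530139 to 47595341, minus strand), the H3K27 methyltransferase of dividing cells, the folds were 3.43, 3.14 and 3.22 in WT and 3.51, 3.05 and 3.08 in KO. The male library was the highest of each genotype and the groups overlapped. Eed (chromosome 7, 89954654 to 89980983, minus strand), the subunit that reads H3K27me3, had folds of 3.39, 2.79 and 2.84 in WT and 3.48, 3.42 and 3.38 in KO. The male WT library lay among the KO values and both female WT libraries below them, and the centred log2 difference was 0.26 ± 0.12 (SE, n = 3 per genotype; limma adjusted p = 0.914 over 5786 genes). Suz12 (chromosome 11, 79993106 to 80034123, plus strand), the scaffold of PRC2, had folds of 3.01, 2.95 and 3.48 in WT and 3.17, 3.03 and 2.81 in KO, which overlapped.

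Ezh1 (chromosome 11, 101191115 to 101226463, minus strand) is the paralog of Ezh2. Its folds were 3.04, 3.34 and 2.63 in WT and 3.02 and 2.76 in KO replicates 1 and 3. In WT replicate 3 the strongest of its peaks was centred 29787 bp inside the gene, at −2254 bp from the nearest TSS. Only the edge of that peak reached a TSS window, and the peak at the outer start had a fold of 2.45. With no peak in KO replicate 2, Ezh1 entered no test of fold.

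Jarid2 (chromosome 13, 44729474 to 44921643, plus strand) encodes an accessory subunit that helps bring PRC2 to its targets. Its folds were 4.57, 3.82 and 3.49 in WT and 3.08, 3.29 and 3.39 in KO. Every KO library lay below every WT library, also after each library was centred on its median, where this was the case for 5.17% of the genes tested. The centred log2 difference was −0.21 ± 0.14 (SE; limma adjusted p = 0.914) over the 6 libraries, −0.0807 ± 0.134 (adjusted p = 0.972) without WT replicate 1 and −0.0379 ± 0.144 (adjusted p = 0.993) over the 4 female libraries. With the TSS of protein-coding transcripts only, it was −0.0163 ± 0.110 (adjusted p = 0.999). The peak that gave these values was not at the outer start. It was centred between 3794 and 4643 bp inside the gene, over the second of 2 CpG islands in the TSS windows (689 bp long with 66 CpG), and between 700 and 1641 bp wide. At the outer start, over an island of 1564 bp with 158 CpG, the folds were lower, at 2.83, 3.12 and 3.05 in WT and 2.74, 2.90 and 2.94 in KO.

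Among the PRC1 genes, Ring1 (chromosome 17, 34020792 to 34024680, minus strand), which encodes the RING1A ligase, had the highest folds of the 10 genes in 5 of the 6 lists. They were 3.72, 4.31 and 3.90 in WT and 4.34, 3.71 and 3.90 in KO, with full overlap between genotypes. Within each list they stood between the 93.9th and the 99.5th percentile of all genes with a KDM2A peak at a TSS. Rnf2 (chromosome 1, 151458004 to 151500955, minus strand), the gene of the RING1B ligase, had folds of 3.04, 3.63 and 2.97 in WT and 3.12, 2.73 and 3.27 in KO, which overlapped. Bmi1 (chromosome 2, 18677018 to 18686629, plus strand) encodes PCGF4 of canonical PRC1. Its folds were 2.98, 2.94 and 2.82 in WT and 3.09, 2.99 and 3.12 in KO. Every KO value was above every WT value, also after each library was centred on its median, where this held for 5.2% of the genes tested. The centred log2 difference was 0.14 ± 0.10 (SE, limma adjusted p = 0.914), and it was 0.0746 ± 0.104 without centring.

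The remaining PRC1 genes belong to the variant complex in which the KDM2A paralog KDM2B recruits PCGF1. Pcgf1 (chromosome 6, 83077869 to 83080855, plus strand) had the lowest median fold of the members with a peak in every list. Its folds were 2.72, 3.19 and 2.80 in WT and 2.78, 2.47 and 2.81 in KO, which overlapped. Bcor (X chromosome, 12036740 to 12160355, minus strand), a corepressor of that complex, had folds of 2.99 and 2.66 in WT replicates 2 and 3 and 2.62, 3.09 and 2.88 in KO. None of the members differed in KDM2A fold by the test: limma called 0 of 5786 genes (0%) at an adjusted p under 0.05, 299 genes had an unadjusted p under 0.05, and no alternative setting made a call. The members' centred log2 differences ran from −0.21 (Jarid2) to 0.26 (Eed), with 4 of the 8 tested higher in KO and 4 lower (Ezh2 turned lower without centring), a median of 0.02 and adjusted p between 0.914 and 1.00. The median over all genes tested was 0.0022.

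**Figure D1:**
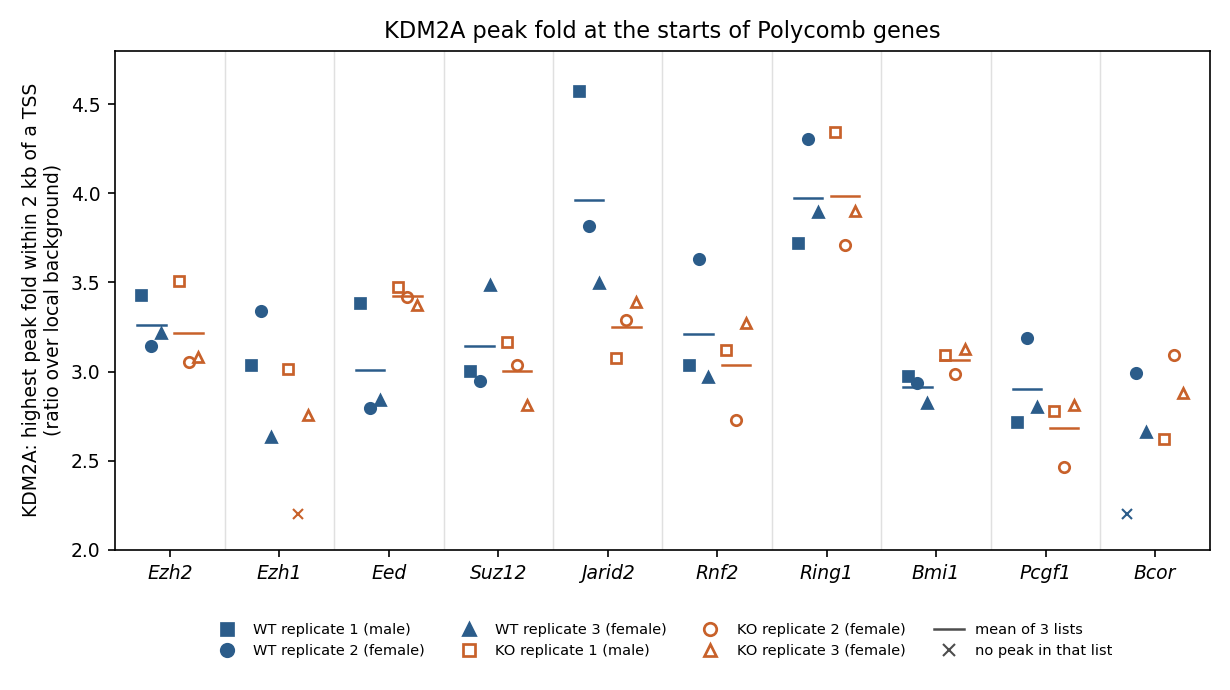
Highest KDM2A peak fold (ratio over local background, vertical axis) within 2 kb of a TSS for each of the 10 Polycomb genes, 1 point per peak list, with filled symbols for WT, open symbols for KO, squares for the male replicate 1 and bars for the mean of 3 lists; crosses mark lists without a peak. Jarid2 has every KO point below its WT points, Bmi1 has every KO point above them, Ring1 lies between 3.71 and 4.34 in both genotypes, and Ezh1 and Bcor each lack a peak in 1 list.

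The extent of KDM2A was compared as the percent of the TSS windows that lay under peaks. Ring1 stood apart, with 79.7%, 79.6% and 79.1% in WT and 67.3%, 100% and 100% in KO. Jarid2 had 21.8%, 26.2% and 24.9% in WT and 19.5%, 26.3% and 27.1% in KO. The Pcgf1 windows were covered to 35.1%, 11.3% and 38.4% in WT and 15.7%, 5.95% and 6.26% in KO. The male KO library overlapped the female WT replicate 2 at Pcgf1, and the difference was −19.0 ± 8.22 percentage points (SE; limma adjusted p = 0.520 over 10427 genes).

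At Ezh1 14.7%, 5.98% and 6.63% of the windows lay under KDM2A in the WT libraries and 2.88%, 0% and 5.77% in KO. It was the only member whose KO values all lay below the WT values, 1 of 10 against 14.8% of all genes tested, at −6.21 ± 3.08 percentage points (limma adjusted p = 0.555). Without WT replicate 1, the highest of the 6, the difference was −3.42 ± 2.32 (adjusted p = 0.758). At the other members the genotypes overlapped: the highest library reached 6.31% at Ezh2, 9.53% at Eed, 18.7% at Suz12, 7.95% at Rnf2, 18.0% at Bmi1 and 30.8% at Bcor. The Ezh2 windows add up to 30155 bp around 12 start positions, against 4749 bp for Ring1, so equal peaks give unlike percentages at these genes. Over the 10 members 5 differences were above 0 and 5 below, with a median of 0.27 percentage points, beside −2.99 over all genes tested, of which 75.6% were below 0. Divided by the genome's share, 8 members were above 0 and 2 below (Pcgf1 and Ezh1), and 36.2% of all genes were below. Limma called 0 of 10427 genes (0%), with 1000 at an unadjusted p under 0.05, and none under any alternative setting.

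The KDM2A peak at Ring1 was of another kind than the rest. Its width was 9420, 10177 and 9932 bp in WT and 4784, 12840 and 12613 bp in KO, which put it above the 99th percentile of peak width in every list. The other members' strongest peaks were between 306 and 3112 bp wide. The peak began inside Ring1 and ran upstream, with its centre at −4764 to −1829 bp relative to the outer start. In 5 lists it held 3 CpG islands and a TSS of Ring1, H2-Ke6, Slc39a7 and Rxrb, and in KO replicate 1, where it was shortest, 2 islands and a TSS of Ring1 and H2-Ke6. Because a broad peak has a single fold, the value given for Ring1 belongs to the whole stretch and not to its start alone. In 4 lists (the WT lists and KO replicate 1) a second, weaker peak with folds of 2.76 to 3.23 lay further inside the gene. In KO replicates 2 and 3 the wide peak itself reached further into the gene than in the other lists, and no separate peak was listed.

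At Bcor the KDM2A peaks were scattered and mostly far from the outer start. The gene had 11 CpG islands within its body or TSS windows, and the longest lay 70835 and 80929 bp inside it (5076 and 4978 bp long). The second of these lies at an internal TSS, and it held a KDM2A peak in 2 WT and 3 KO lists. The first held a peak in 3 WT lists and 1 KO list. The island at the outer start held a peak in 2 WT lists and 1 KO list. The number of KDM2A peaks over the gene body varied between 1 and 8 from list to list, with 1, 5 and 7 in WT and 2, 2 and 8 in KO, so the spread within a genotype was as wide as that between them. The male libraries had 1 and 2 peaks, and the female libraries between 2 and 8.

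**Figure D2:**
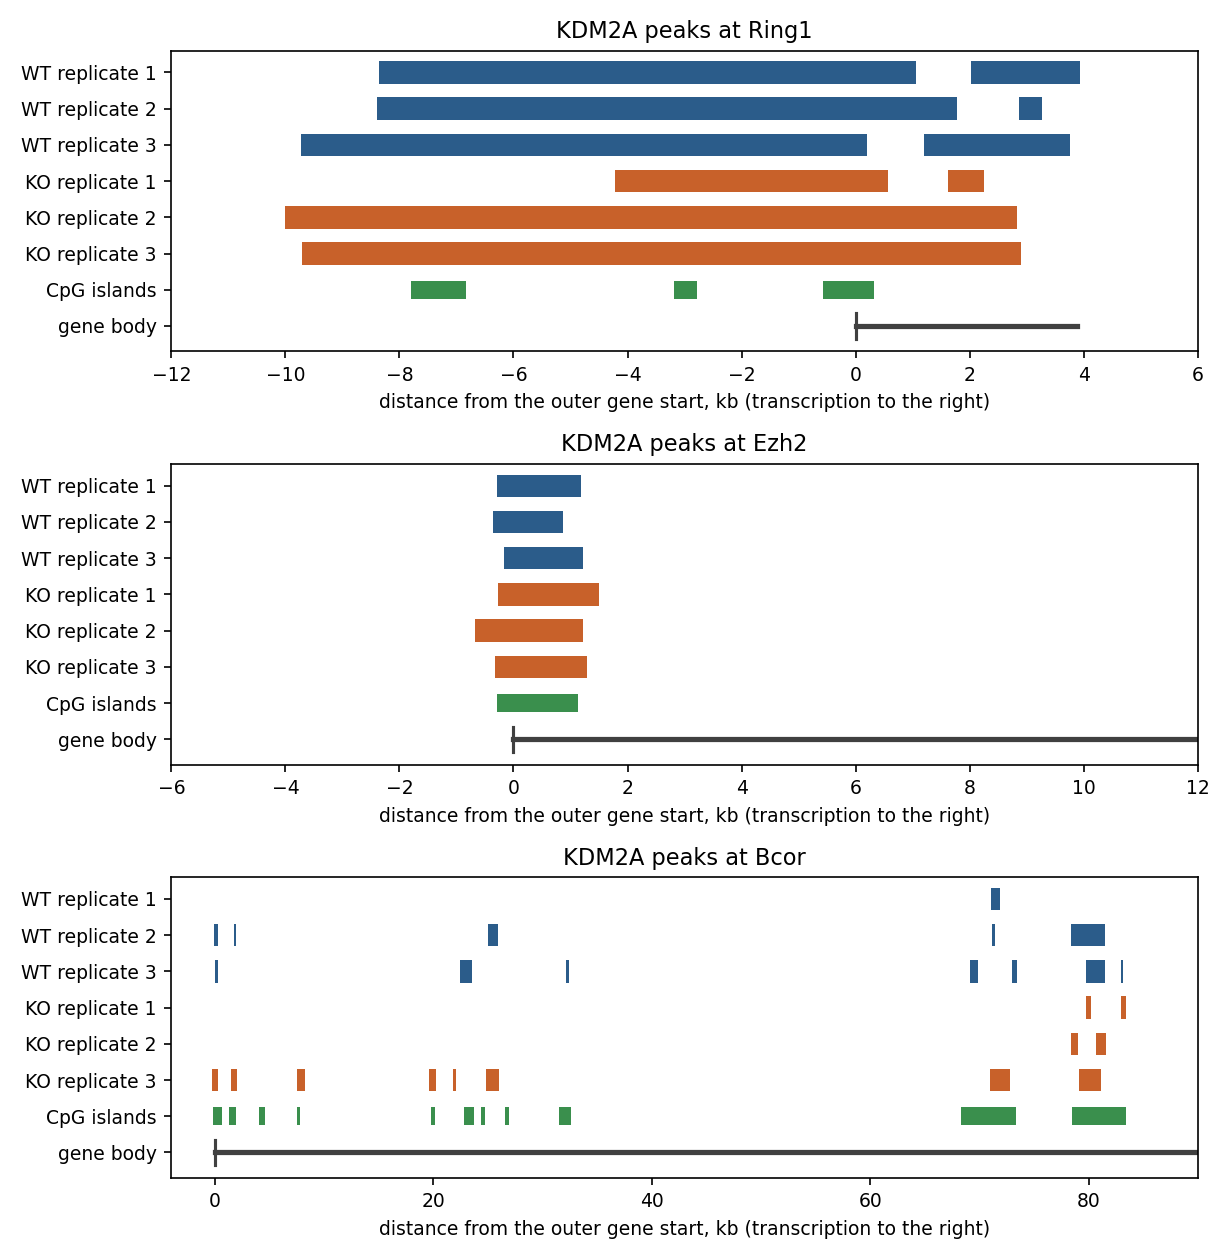
KDM2A peaks (bars, 1 line per list, blue for WT and orange for KO) that touch the body or TSS windows of Ring1, Ezh2 and Bcor, placed by distance in kb from the outer gene start, with CpG islands in green. The Ring1 peak is 4784 to 12840 bp wide and runs upstream of the start over further islands, an Ezh2 peak lies at the island of the start in every list, and the Bcor peaks lie mainly at islands 70835 and 80929 bp inside the gene.

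The study's own rule for KDM2A was applied to the members. Peaks of the 6 lists were merged into intervals, an interval counted as bound in a genotype with peaks in at least 2 of its 3 libraries, and it was enriched in a genotype when its mean fold there was over 3 and either 1.17 times that of the other genotype or bound in that genotype only. The 10 genes held 17 bound intervals. The interval of Jarid2 at chr13:44732448-44734743, at the inner island, was WT-enriched with mean folds of 3.96 in WT and 3.25 in KO (ratio 0.821, 3 of 3 lists in each genotype). An interval inside Bcor at chrX:12087581-12089352, in an intron and on the first of the long islands, was WT-enriched with a mean fold of 3.01 in 2 WT lists, and 1 KO list had a peak of 2.56 there. The rule called 9.14% of the 16511 bound intervals WT-enriched and 1.91% KO-enriched, and at the members 2 and 0. The rule carries no test. Both calls ended without WT replicate 1, and without that library the interval at Eed became KO-enriched (mean folds 2.82 and 3.42). The Bcor call also ended without WT replicate 2 and when each library was scaled to a common median fold. Elsewhere in Jarid2 an intronic interval at chr13:44799915-44800768, away from any TSS or island, was bound in 3 KO lists and 1 WT list with mean folds of 2.71 and 2.91.

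H3K36me2 peaks covered a small share of most of the 10 genes, and less of the genes together in every KO list than in any WT list. A peak over the gene or within 2 kb of a TSS was present at 8, 9 and 10 of them in WT and 8, 5 and 4 in KO. Of all 21938 protein-coding genes, 10714, 11153 and 11183 had one in WT and 11098, 5781 and 6350 in KO. At these genes WT lists held 47, 47 and 48 peaks and KO lists 49, 19 and 18, so in number of peaks the male KO library stood with the WT libraries. A peak over the gene or within 2 kb of a TSS was present in all 6 lists for Ezh2, Jarid2 and Rnf2 (3 of 10 genes, against 17.7% of all protein-coding genes). Together the gene bodies measure 543 kb, of which 59.8, 58.7 and 60.5 kb lay under peaks in WT and 32.3, 15.3 and 11.7 kb in KO. The groups did not overlap (exact permutation test, two-sided, p = 0.1, which no split of 3 against 3 libraries can go below). As a share of their length, 11.0% ± 0.166 lay under peaks in WT against 3.63% ± 2.03 in KO (SD, n = 3), against 5.85 ± 0.778 and 2.45 ± 1.57 over all protein-coding genes. The KO mean was thus 0.331 of the WT mean at the members and 0.419 of it over all genes, and that difference was not tested. List by list, the members' covered percent divided by that of all genes was 2.22, 1.70 and 1.78 (WT) and 1.39, 1.71 and 1.48 (KO), and the genotypes overlapped. Jarid2 alone supplied between 65.8% and 83.7% of the members' covered kb. Without Jarid2, a choice made after its values were seen, the remaining 9 genes had 4.57%, 4.88% and 5.10% of their bodies covered in WT and 1.49%, 1.49% and 0.871% in KO. Divided by the percent of all genes, this was 0.921, 0.768 and 0.818 (WT) and 0.350, 0.905 and 0.60 (KO), which overlapped.

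By gene, Jarid2 had 22.8%, 21.6% and 22.1% of its body under H3K36me2 peaks in WT and 14.1%, 5.23% and 4.48% in KO. Every KO library was below every WT library and the male KO library was the highest of the 3, with a difference of −14.3 ± 5.25 percentage points (SE; limma adjusted p = 0.170 over 8632 genes). Rnf2 had 17%, 16.5% and 10.0% in WT and 5.86%, 2.15% and 4.58% in KO, again without overlap, at −10.3 ± 4.08 percentage points (adjusted p = 0.176). With lists of equal length the Rnf2 difference was −2.79 ± 2.56, and with peaks of −log10 q of at least 2 it was −1.70 ± 2.28, where that of Jarid2 was −3.22 ± 1.66. Ezh1 had 3.84%, 3.36% and 7.86% in WT and 1.94%, 0.996% and 0% in KO. Bcor had 1.14%, 4.59% and 3.40% in WT and 0.409%, 0% and 0.439% in KO. The KO values of Ezh1 and Bcor also stayed below all WT values, at −4.04 ± 1.63 (adjusted p = 0.181) and −2.76 ± 1.01 percentage points (adjusted p = 0.170). Without WT replicate 3 the Ezh1 difference was −2.62 ± 1.17.

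The remaining members overlapped between genotypes or lacked the mark. Ezh2 had 7.72%, 4.34% and 5.06% in WT and 1.24%, 5.15% and 0.837% in KO. Bmi1 had 0%, 3.63% and 31.8% in WT and 7.58%, 6.08% and 0% in KO, so that WT replicate 3 alone set its WT mean. The body of Eed held no H3K36me2 peak in any of the 6 lists. Suz12 and Pcgf1 had a peak in 1 WT list each (1.19% and 0.770%), and Ring1 in WT replicates 1 and 3 (11.8% and 6.25%). No KO list had a peak over the body of Eed, Suz12, Ring1 or Pcgf1.

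Over all genes limma called 0 of 8632 in H3K36me2 coverage of the gene body (0%), with 2230 at an unadjusted p under 0.05. Of the 6 members tested 4 had every KO library below every WT library, against 33.7% of all genes tested, and all 6 differences were below 0, as were 93.3% of those over all genes. Their median was −5.65 percentage points, beside −5.38 over all genes. Leaving out KO replicate 1 alone gave 490 calls, none of them a member. Without both male libraries limma called 2197 of 8632 genes (25.5%), and 2 of the 6 members tested, a share near that background: Jarid2 at −17.0 ± 2.57 percentage points (adjusted p = 0.0421) and Bcor at −3.78 ± 0.825 (adjusted p = 0.0494). Once each value was divided by the percent of the genome under peaks in its list, no gene was called, and the differences were −1.16 ± 1.11 at Jarid2 (adjusted p = 0.788), −0.98 ± 1.05 at Rnf2, −0.63 ± 0.36 at Ezh1 and −0.46 ± 0.21 at Bcor (adjusted p = 0.598), in units of the genome's share.

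At the starts Jarid2, Ring1 and Eed had less of the mark in every KO list than in any WT list. Within 2 kb of a TSS, 5, 7 and 9 of the members had an H3K36me2 peak in WT and 5, 1 and 1 in KO (exact permutation test p = 0.2, two-sided, n = 3 per genotype). Among the members the male KO library equalled the male WT library, and the female KO libraries lay below all WT libraries. Of all 21938 protein-coding genes, 8618, 8901 and 9080 had such a peak in WT and 8477, 3524 and 3879 in KO. There too the female KO lists were the lowest. When each list was shortened to the same length, keeping its strongest peaks, the members with such a peak numbered 4, 4 and 6 against 1, 1 and 1 (exact permutation p = 0.1). The male KO library then lay below the WT libraries too. No count over all genes is given for these shortened lists. Jarid2 had 47.0%, 36.2% and 43.7% of its windows covered in WT and 12%, 0% and 2.15% in KO, at −37.6 ± 11.0 percentage points (SE; limma adjusted p = 0.185 over 8313 genes). Ring1 had 20.2%, 33.4% and 23.8% in WT and 4.30%, 0% and 0% in KO, at −24.3 ± 8.31 percentage points (adjusted p = 0.185). At both genes the gap between the genotypes was wider than the spread within either.

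Eed, whose body had no peak, had 7.72%, 4.44% and 3.68% of its windows covered in WT, all of it upstream of the gene, and 0% in each KO library. These 3 genes were the members with every KO value below every WT value, 3 of 6 tested against 29.4% of all genes. Divided by the genome's share, the differences were −7.20 ± 2.98 at Jarid2, −4.82 ± 2.13 at Ring1 and −1.13 ± 0.53 at Eed (limma adjusted p between 0.514 and 0.532), and 5 of the 6 members tested were below 0, beside 66.1% of all genes. Ezh2 had 3.45%, 2.21% and 2.96% in WT and 1.63%, 6.24% and 0% in KO. Bmi1 (0%, 4.31% and 37.8% against 9.01%, 0% and 0%) and Pcgf1 (0%, 4.78% and 12.6% against 3.27%, 0% and 0%) overlapped. Suz12 and Rnf2 had peaks in 2 WT lists and Ezh1 in 1 WT list, all 3 without a KO peak, and Bcor had none in any list. Limma called 0 of 8313 genes (0%), with 1817 at an unadjusted p under 0.05, and none under any alternative setting.

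The height of the H3K36me2 peaks could be tested at 3 members. Over Jarid2 the highest fold reached 3.07, 3.12 and 2.92 in the WT libraries and 2.97, 2.79 and 2.88 in KO. KO replicate 1 lay within the WT range on this scale, and after each library was centred on its median every KO value was below every WT value (6.15% of genes tested), at −0.10 ± 0.07 on the log2 scale (SE; limma adjusted p = 0.895 over 3886 genes). Ezh2 ran from 2.45 to 2.82 in WT and from 2.62 to 2.73 in KO. Rnf2 ran from 2.73 to 2.96 in WT and from 2.77 to 3.20 in KO, and both overlapped. Limma called 0 of 3886 genes (0%), with 204 at an unadjusted p under 0.05, and 1 gene that was no member in each of 2 alternative settings.

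**Figure D3:**
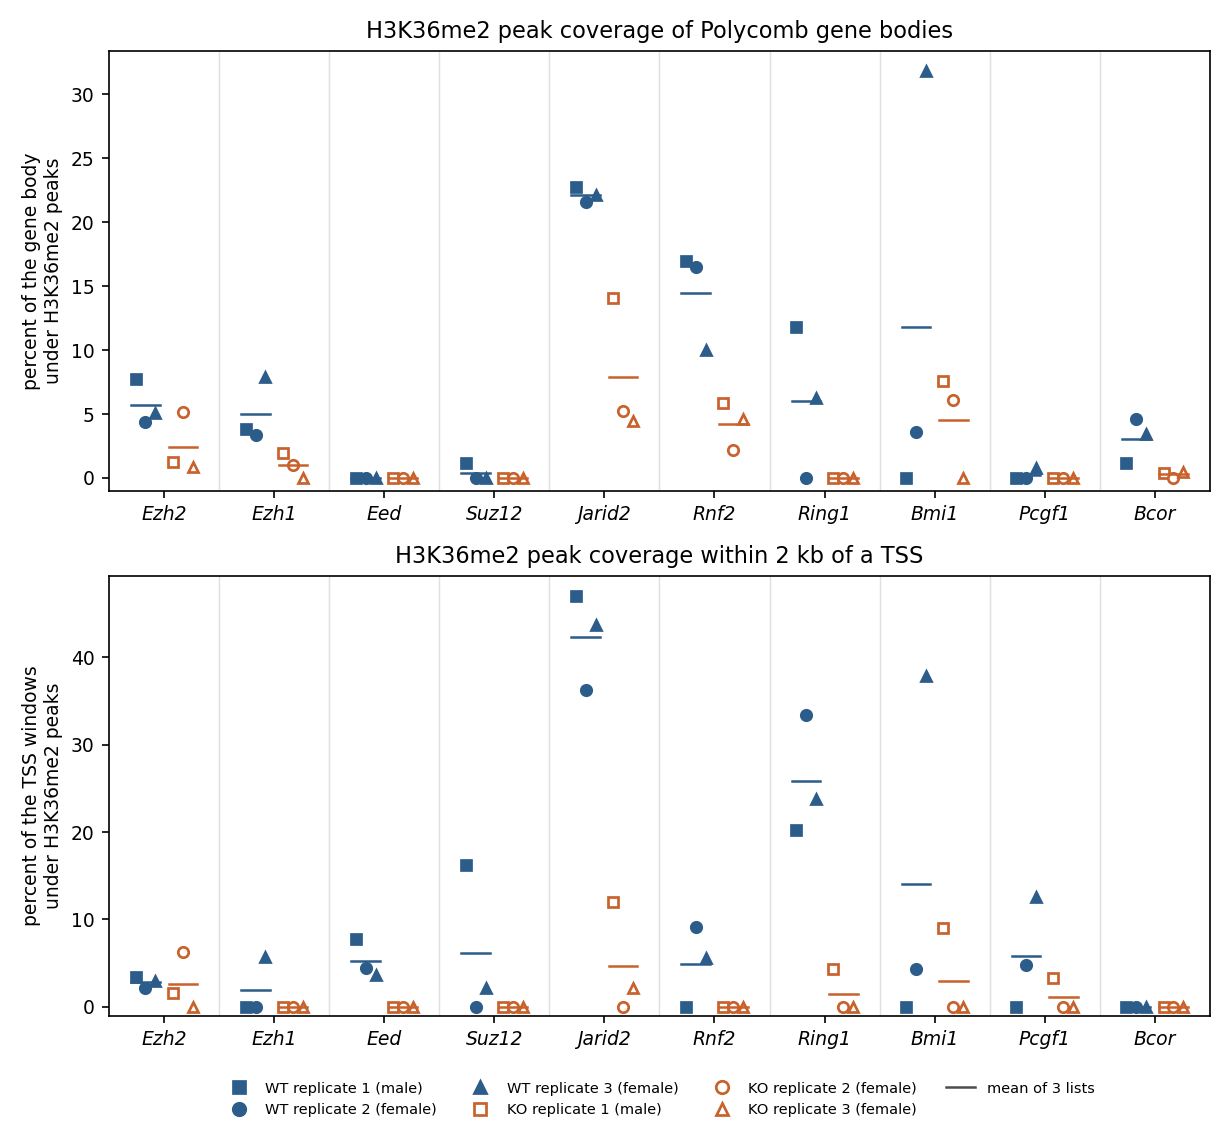
Percent of the gene body (upper panel) and of the windows within 2 kb of a TSS (lower panel) under H3K36me2 peaks for each of the 10 Polycomb genes, 1 point per list, with symbols as in the plot of KDM2A folds and bars for the mean of 3 lists. Jarid2 lies between 21.6% and 22.8% in WT and 4.48% and 14.1% in KO over its body, Eed, Suz12, Ring1 and Pcgf1 are at 0% in every KO list over the body, and the high WT point of Bmi1 is replicate 3.

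Jarid2 was the longest member at 192170 bp, and its H3K36me2 formed a chain of separate peaks rather than a block. Over its body 30, 27 and 29 peaks were listed in WT, and 32, 12 and 13 in KO libraries. The male KO library had more peaks than any WT library but 27 kb under them, against 43.7, 41.5 and 42.6 kb in WT, and the female KO libraries had 10.0 and 8.60 kb. In steps of 10 kb from the outer start, the last 5 steps, from 150 kb on, held no covered base in any of the 6 lists. Of the 20 steps, 5 had every KO list below every WT list and none had every KO list above. Between 60 and 70 kb the covered percent reached 61.4, 64.5 and 49.5 in the WT libraries and 37.7, 9.37 and 7.58 in KO. Just upstream of the gene, from 10 kb before the start, it reached 62.5, 89.5 and 76.6 in the WT libraries and 26.4, 18.5 and 26.2 in KO.

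**Figure D4:**
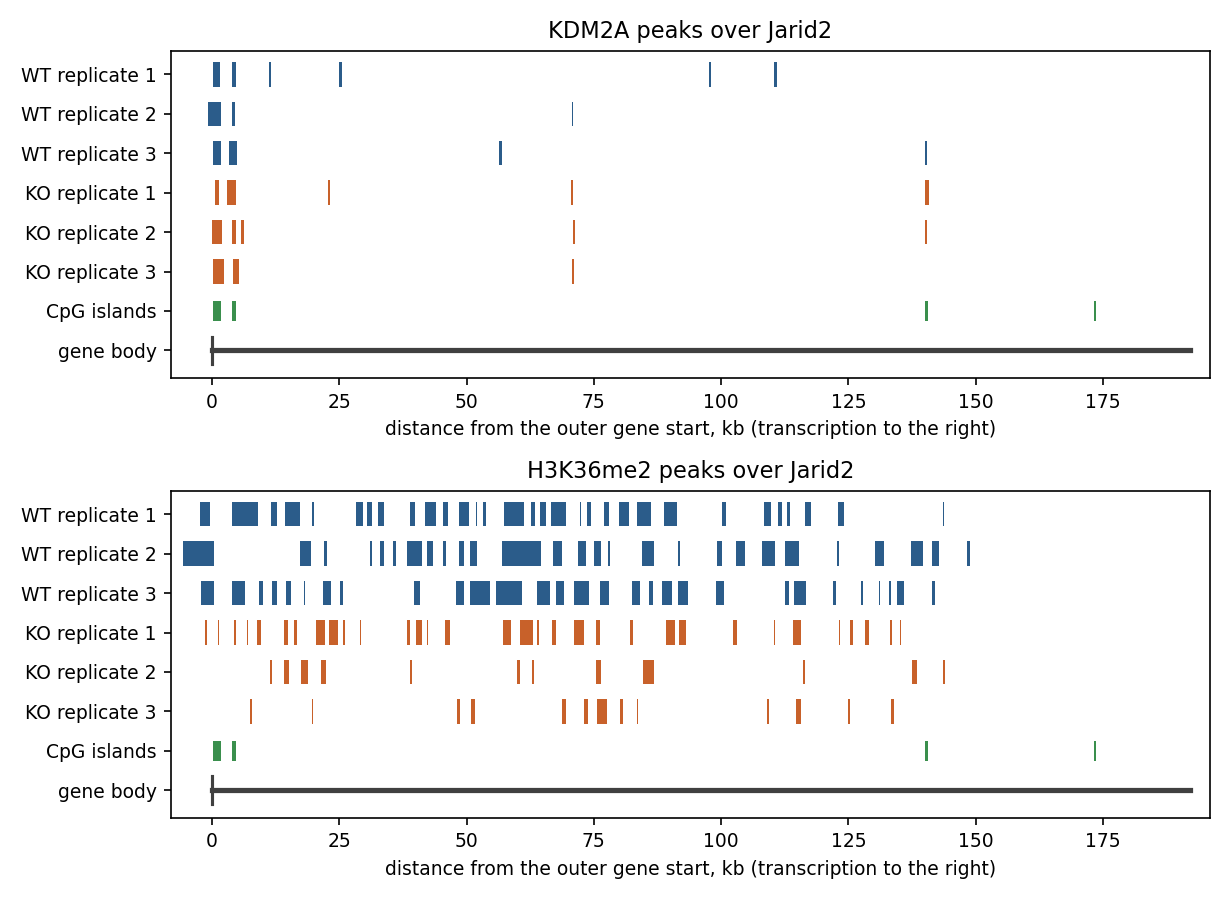
KDM2A peaks (upper panel) and H3K36me2 peaks (lower panel) that touch the body or TSS windows of Jarid2, 1 line per list, blue for WT and orange for KO, by distance in kb from the outer gene start, with CpG islands in green. KDM2A peaks recur at the islands of the start in every list, while the H3K36me2 peaks number 27 to 30 in WT and 12 to 32 in KO and end before 150 kb in every list.

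KDM2A peaks lay on CpG islands far more often than H3K36me2 peaks at these genes. The 228 H3K36me2 peaks over the members, pooled over the lists, lay mostly at Jarid2. Of them 13 (5.70%) overlapped a CpG island, against 86 of 117 KDM2A peaks (73.5%). The peaks of the antibodies also met. At Ring1 the wide KDM2A peak held an H3K36me2 peak in each WT list and in KO replicate 1. The inner KDM2A peak of Jarid2 overlapped an H3K36me2 peak in WT replicates 1 and 3 and KO replicate 1. Overlap between the antibodies was not counted over all members. The members had 15 CpG islands in their TSS windows. All 15 held a KDM2A peak in at least 1 list and 9 of them in all 6. An H3K36me2 peak touched 6 of the 15 in any WT list and 2 in any KO list, both at Jarid2 in the male KO library. The outer gene start itself lay under an H3K36me2 peak in 3 of 30 pairs of gene and WT list (Jarid2 in WT replicates 2 and 3, Pcgf1 in WT replicate 3) and in 0 of 30 pairs in KO.

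The distance from the outer start to the nearest H3K36me2 peak in each KO list exceeded that in all WT lists at 5 of the 10 genes, against 15.2% of all protein-coding genes. At Eed it was 0.569, 1.18 and 0.769 kb in WT and 5.06, 18.6 and 3.34 kb in KO. At Rnf2 it was 2.28, 0.385 and 0.831 kb in WT and 3.35, 8 and 9.87 kb in KO. At Ring1 it was 0.312, 0.417 and 0.677 kb in WT and 0.787, 8.07 and 12 kb in KO, and the male KO library was the nearest of its group. Jarid2 (0 to 0.471 kb in WT and 0.957 to 5.00 kb in KO) and Bcor (5.08 to 9.33 kb in WT and 13.1 to 116 kb in KO) were the other two. At Ezh2, Ezh1, Suz12, Bmi1 and Pcgf1 the genotypes overlapped. Fewer peaks in a list give longer distances by themselves, and the H3K36me2 lists of the female KO libraries were the shortest (37447 and 45180 peaks).

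A wider list of 36 other Polycomb genes (further PRC1 and PRC2 subunits, the PR-DUB deubiquitinase and the H3K27 demethylases) had been set beside the members. All 36 had a CpG island in a TSS window, and 20 had a KDM2A peak there in all 6 lists, while Auts2 and Asxl3 had none in any list. None of them passed the test in any of the 5 comparisons. In KDM2A fold 7 of the 20 tested were higher in KO and 13 lower, with a median of −0.02 on the centred log2 scale. The lowest were Phf1, a PRC2 accessory subunit (2.83, 4.94 and 3.42 in WT and 2.38, 2.99 and 3.20 in KO, log2 difference −0.30 ± 0.16), and Phc2, a Polyhomeotic subunit of PRC1 (−0.20 ± 0.12). The highest were Pcgf5 (0.10 ± 0.09) and Asxl1 (0.10 ± 0.12). In KDM2A coverage at the TSS 8 of 33 were higher and 25 lower (75.8%), beside 75.6% lower over all genes tested, and once divided by the genome's share 22 were higher and 11 lower (33.3%, beside 36.2%). The values ran from Kdm6b (−33.0 ± 15.6 percentage points) and Cbx8 (−29.8 ± 15.6) to Phc3 (6.04 ± 3.22) and Yaf2 (8.45 ± 12.6). Divided by the genome's share, Kdm6b and Cbx8 were at −1.35 ± 25.5 and −2.77 ± 20.8. In the female libraries Yaf2 was at 0.145 ± 13.2 percentage points and Phc3 at 8.29 ± 4.09. Kdm6b and Cbx8 were there at −34.2 ± 13.8 and −23.1 ± 15.3.

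In H3K36me2 coverage of the gene body all 24 tested of the wider list were lower in KO, as were 93.3% of all genes tested, with a median of −5.69 percentage points beside −5.38. Of the 24, 8 had every KO value below every WT value, near the background of 33.7%. Divided by the genome's share 19 were lower and 5 higher (Kdm6a, Kdm6b, Lcor, Rybp and Yaf2). The lowest were Cbx6, a chromobox gene (32.6%, 17.3% and 26.4% in WT and 6.23%, 4.94% and 0% in KO, −21.7 ± 5.73 percentage points, limma adjusted p = 0.166), and Cbx2 (−20.9 ± 11.3). The highest were Auts2 (−0.19 ± 0.40) and Phc3 (−0.87 ± 1.04). At the TSS all 17 tested were lower in KO, beside 91.2% of all genes, and 14 after division by the genome's share, where Kdm6a was higher. The groups did not overlap at 11 of the 17, against 29.4% of all genes, and the values ran from Phf19 (−24.7 ± 13.4) and Kdm6b (−24.7 ± 12.5) to Kdm6a (−0.49 ± 3.20). In H3K36me2 fold over the gene 7 were tested. They ran from Phc2 (−0.13 ± 0.08 on the log2 scale) and Usp7 (−0.08 ± 0.08) to Rybp (0.08 ± 0.07) and Lcor (0.17 ± 0.07, limma adjusted p = 0.895). In the female libraries these were, in the same order, −0.14 ± 0.11, −0.016 ± 0.094, −0.0015 ± 0.085 and 0.22 ± 0.092.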

How the data were processed

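KDM2A and H3K36me2 ChIP-seq of B cells was analysed from 12 lists of broad peaks, 1 per library. Per the labels and the study's methods, the authors aligned reads with BWA to GRCm38 in the nf-core/chipseq pipeline and called broad peaks with MACS2 separately in each library against input. Of each deposited peak the fold over local background (a ratio) and the −log10 p-value and −log10 q-value were used, and the score column was not. Read depth is unknown, so no counting error can be given, and a fold compares signal with background within 1 library only.

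Starts were converted to 1-based positions. GENCODE M21 protein-coding genes on chromosomes 1 to 19, X and Y were scored for the highest fold of a peak overlapping by 1 bp or more the windows 2 kb on each side of every TSS (KDM2A) or the gene and those windows (H3K36me2), and for the percent of the windows or body under peaks. Fold was tested in genes with a peak in all 6 lists, as log2 values centred on each library's median, and coverage in genes covered in at least 3 of the 6 lists. CpG islands were computed on GRCm38.p6 (at least 200 bp, GC of at least 50%, observed over expected CpG of at least 0.6), which gave 16099 of 662 bp on average; promoters came from RefSeq on the same assembly.

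Each of the 5 comparisons was fitted with limma 3.58.1 (R 4.3.3, genotype only, trended variance) over all genes, and Benjamini-Hochberg adjusted p under 0.05 was the threshold. Sums over the members were compared with exact permutation tests. Scripts used Python 3.11.15 with numpy 2.4.6, pandas 2.3.3, scipy 1.17.1 and matplotlib 3.10.9. On simulated data with known changes, the fits recovered 52% and 96% of genes changed by 0.5 and 1 on the log2 scale in KDM2A fold, and 90% and 100% in H3K36me2 fold. For changes of 10 and 30 percentage points they recovered 0.5% and 42.5% in KDM2A coverage, 8% and 62.5% in H3K36me2 coverage of the body and 0% and 26% at the TSS. False calls numbered between 0 and 15. The simulated noise was independent between genes, without a shift of a whole library and without a bound at 0% and 100%. The recovered shares hold for such noise only.

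The members and lists were chosen with earlier results of these data known. All 10 members are named in every comparison; of the wider list the 2 highest and the 2 lowest differences of each comparison are named, apart from an item that is not reported here. The steps of 10 kb along Jarid2, the distance to the nearest H3K36me2 peak, the sums without Jarid2 and the ratio of KO to WT means were chosen after values were seen. Promoters are printed for the highest and the lowest CpG number and for up to 2 members whose KDM2A detection differed between genotypes. Alternatives changed the scaling, window, overlap, peak threshold, number of peaks, replicate block and libraries.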

Additional observations from a re-analysis of the deposited data

Results flagged for a closer look

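At 5 places the male pair of libraries differed in one direction and the female libraries in the other, with every female KO value on the far side of every female WT value. Places where the female genotypes overlapped are not listed. With 1 male library per genotype this contrast between sexes was not tested. In KDM2A coverage of the TSS windows, Suz12 differed by −3.66 percentage points in the male pair and 6.59 in the female libraries. Jarid2 differed by −2.33 and 1.15 points in the same order. Ring1 differed by −12.5 points in the male pair, where the KO peak was the short one, and by 20.7 in the female libraries, where both KO lists had all of the windows covered. In H3K36me2 coverage of the TSS windows, Bmi1 differed by 9.01 points in the male pair and −21.1 in the female libraries. Pcgf1 differed by 3.27 and −8.67 points there, and at both genes WT replicate 3 was the highest of the 6 lists.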

How the results depend on the processing

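Of 421 recomputed values for 33 results of the members, 377 kept their direction and side of the threshold, 42 changed sign and 2 (Jarid2 and Bcor in H3K36me2 coverage of the body, female libraries only) moved past the threshold. No value that changed sign had passed the test. The cause was not tested.

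In KDM2A fold (log2), Ezh2 was −0.0234 without centring, Suz12 0.0055 with an equal number of peaks per list and Ring1 −0.0155 in the female libraries. In KDM2A coverage (percentage points), Eed was −0.77, Jarid2 1.15 and Rnf2 −0.78 in the female libraries, Rnf2 −1.63 with peaks of −log10 q of at least 2, Bcor 4.11 with an equal number of peaks, and, divided by the genome's share, Jarid2 18.7, Bmi1 3.40 and Bcor 4.13. In H3K36me2 fold, Ezh2 was 0.0314 in the female libraries, 0.0014 without centring and 0.0438 over the gene body only, and Rnf2 −0.0287 in the female libraries and −4.55 as a percentile rank. In H3K36me2 coverage, Ezh2 was 0.18 for the body divided by the genome's share, and at the TSS 0.54 in the female libraries and 0.86 divided by that share.

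Leaving out 1 library at a time changed signs within these ranges. KDM2A fold ran from −0.0220 to 0.10 at Ezh2, −0.0791 to 0.0810 at Suz12 and −0.0633 to 0.0459 at Rnf2. KDM2A coverage ran from −0.64 to 1.3 at Eed, −1.41 to 2.39 at Jarid2, −0.70 to 2.02 at Rnf2 and −10.8 to 4.64 at Bcor. H3K36me2 fold ran from −0.0796 to 0.0271 at Ezh2 and −0.0114 to 0.0448 at Rnf2. H3K36me2 coverage ran from −13.2 to 2.74 over the body of Bmi1, and at the TSS from −2.06 to 1.06 at Ezh2 and −18.1 to 0.85 at Bmi1, where WT replicate 3 set the sign.

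Genes called in H3K36me2 coverage of the body numbered 0 to 490 without 1 library and 2197 in the female libraries. In H3K36me2 fold they numbered 0 to 1 without 1 library, and 1 with the replicate block. Same-numbered libraries did not deviate together (r from −0.09 to 0.07). With so few libraries this cannot decide whether the samples were paired, and the replicate number matched the sex in both genotypes. The replicate block changed no other count. With an equal number of peaks per list, KO minus WT was 0.67 members with a KDM2A peak at a TSS, −0.33 KDM2A peaks over the bodies, −22.5 kb and −4.15 percentage points of the bodies under H3K36me2, and −3.67 members with an H3K36me2 peak at a TSS. The WT-enriched intervals numbered 1 after scaling and 0 to 2 without 1 library, and the KO-enriched ones 0 to 1.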
